A study of Mus musculus with 7 samples.

Results

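The miR-101 family was followed in plasma from mice after status epilepticus (SE), in small RNA bound to Argonaute 2 (Ago2). Its members were taken as every row of the count table that belongs to the hairpins miR-101a, miR-101b or miR-101c, whichever arm of the hairpin was counted. This gave 4 of the 640 miRNAs counted, which are miR-101a-3p, miR-101b-3p, miR-101c and miR-101a-5p. This rule uses names and not levels in plasma, although it was set with earlier results of these data known. The study places miR-101a-3p, miR-101b-3p and miR-101c among brain-enriched miRNAs for which no cell type was assigned. These plasma counts hold no brain tissue and do not test that assignment.

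A total of 7 small RNA libraries were sequenced, each made from plasma pooled from 10 adult male C57BL/6JOlaHsd mice (c57 in the labels), and each the only library of its condition. Ago2 was immunoprecipitated from the pooled plasma with an antibody and the bound RNA was extracted. Control mice had received PBS into the amygdala, and their plasma was collected at 4 h, 8 h and 24 h (control 4 h, control 8 h and control 24 h). SE mice had received kainic acid, an agonist of glutamate receptors, into the amygdala, followed by a benzodiazepine to curtail the seizures, and their plasma was collected at the same 3 time-points and also at 2 weeks (SE 4 h, SE 8 h, SE 24 h and SE 2 weeks). No 2-week control library was analysed here, so SE 2 weeks was set against control 24 h. That pairing follows the study, and it means that the last 2 comparisons share a control library. Because each library is a pool of 10 mice, the spread between animals cannot be seen, and differences from control could not be checked against replicates. In plasma, fewer cells that release a miRNA and less of it released per cell cannot be told apart.

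A miRNA guides Ago2 to messenger RNAs that pair with its seed, the bases from position 2 to position 8 counted from the 5′ end, and the bound transcripts are then repressed. A shift of the 5′ end by a single base therefore changes the seed. miR-101 is conserved among vertebrates and is known for repressing Ezh2, the methyltransferase of Polycomb repressive complex 2. Ago2 protects the miRNAs it carries from nucleases, which helps them persist in plasma.

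The mature sequences are shown because the members are so alike that what separates them decides what can be counted apart. They are from RefSeq on GRCm38.p6, 5′ to 3′, with the seed in capitals, and all 4 members had an entry. miR-144-3p, an erythroid miRNA, is shown last because it begins like miR-101a-3p.
miR-101a-3p: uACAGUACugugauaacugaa
miR-101b-3p: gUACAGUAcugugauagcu
miR-101c: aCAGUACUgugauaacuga
miR-101a-5p: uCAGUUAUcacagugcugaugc
miR-144-3p: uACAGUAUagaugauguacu

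The 3 members from the 3′ arm carried 3 different seeds, because their annotated 5′ ends lie 1 base apart. miR-101b-3p (19 bases) starts 1 base upstream of the start of miR-101a-3p (21 bases). Aligned over 18 bases, they differ only by A16G, where the position is counted from 1 at the 5′ end of miR-101a-3p, whose base is written first. miR-101c (19 bases) is identical to positions 2 to 20 of miR-101a-3p. Each of the 3 seeds was found in 1 of the 1679 mature mouse miRNAs in the RefSeq table. The first 6 bases of the seed of miR-101a-3p, ACAGUA, were shared with miR-144-3p and with no other entry. The authors' alignment allowed up to 2 mismatched bases. The 3 members from the 3′ arm lay within 2 mismatches of one another over at least 16 bases. No other mature sequence in the RefSeq table came as close to any of them. Reads that start or end off the annotated position could thus be credited to the wrong member. The split between miR-101a-3p, miR-101b-3p and miR-101c is therefore less certain than their sum.

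The hairpins of the leading pair are shown because the mature strand sits in the same place in both, on the 3′ arm. The mature 3′ strand is in capitals.
Mir101a: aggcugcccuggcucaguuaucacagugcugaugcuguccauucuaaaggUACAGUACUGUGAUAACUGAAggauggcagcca
Mir101b: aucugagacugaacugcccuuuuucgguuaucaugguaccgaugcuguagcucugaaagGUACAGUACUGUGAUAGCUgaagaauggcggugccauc
In the Mir101a hairpin the base just before the mature strand is G, the base with which miR-101b-3p begins. Mir101a lies at chr4:101346945-101347027 of GRCm38 on the minus strand, within an exon of the long intergenic noncoding RNA gene E130102H24Rik. Mir101b lies at chr19:29135279-29135375 on the plus strand, within an intron of Rcl1, which encodes a protein of ribosomal RNA processing. Mir101c lies at chr9:3038669-3038743 and overlaps no other gene of the annotation.

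Total counts per library were between 2043220 and 5405357, and a count of 3, the floor used here, was worth between 0.555 and 1.47 CPM (counts scaled to a common library total). Counts are reads from PCR without molecular identifiers, so every interval and floor below covers counting error only. The erythroid miR-486b-5p took 62.5% to 76.1% of each library, and its share was highest in control 4 h and SE 24 h. Of the 3 erythroid miRNAs listed as markers, miR-451a and miR-144-3p were instead lowest in control 4 h. Each library had its own value around which low counts clustered. It was 102 in control 4 h and lay between 33.1 and 60.2 in the remaining 6. Library totals were adjusted by the trimmed mean of M-values (TMM) in edgeR, and levels below are CPM on the TMM-adjusted totals unless another scale is named.

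The family as a whole was a small but well counted fraction of plasma Ago2 RNA. In control it had 2496 counts at 4 h, 6393 at 8 h and 6257 at 24 h. The SE libraries held 10719 counts at 4 h, 7918 counts at 8 h and 5863 counts at 24 h, and SE 2 weeks held 5480. On plain library totals the family was lowest in control 4 h, at 1222 CPM (95% Wilson interval 1175 to 1270), and highest in SE 8 h, at 2500 CPM (2446 to 2556). miR-101a-3p made up 66.5% of all counts of the family and miR-101b-3p 32.7%. miR-101c made up 0.698% and miR-101a-5p 0.0576%. By counts summed over the 7 libraries, miR-101a-3p ranked 38 and miR-101b-3p ranked 50 among the 640 miRNAs. Both exceeded 50 CPM in all 7 libraries and were tested in every comparison. miR-101c and miR-101a-5p were under 50 CPM in all of them and were tested in none.

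miR-101a-3p, the most abundant member, was within 1.16-fold in the 3 control libraries, with 1013 CPM at 4 h, 1031 CPM at 8 h and 885 CPM at 24 h. In SE it stood at 1862 CPM at 4 h, 1645 CPM at 8 h, 1105 CPM at 24 h and 1071 CPM at 2 weeks. The SE libraries of 4 h and 8 h were high, those of 24 h and 2 weeks were just above the highest control, and the groups did not overlap. The control levels had a mean of 976 ± 79.4 CPM (SD, n = 3 time-points), and the SE levels of 4 h, 8 h and 24 h a mean of 1537 ± 390 CPM (SD, n = 3 time-points). Among 102 miRNAs at 50 CPM or more in all 7 libraries, 6 (5.88%) had all 4 SE libraries above all 3 control libraries. This separation depended on the scaling. With library size only, miR-101a-3p ranged from 833 to 1892 CPM in SE and from 864 to 1259 CPM in control, and with DESeq2's size factors from 1053 to 1729 CPM in SE and from 858 to 1151 CPM in control, so that the groups overlapped with both.

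miR-101b-3p followed another course. It was at 418 CPM in control 4 h, 434 CPM in control 8 h and 677 CPM in control 24 h. In SE it was at 639 CPM at 4 h, 513 CPM at 8 h, 985 CPM at 24 h and 692 CPM at 2 weeks. The groups overlapped, since control 24 h was above both SE 4 h and SE 8 h. With TMM each SE library was nonetheless above the control it was set against, and the highest level of miR-101b-3p was at 24 h, whereas that of miR-101a-3p was at 4 h. These peaks depended on the scaling. With library size only, miR-101a-3p was highest in SE 8 h (1892 CPM) and miR-101b-3p in SE 2 weeks (840 CPM). With DESeq2's size factors they were highest in SE 8 h (1729 CPM) and SE 24 h (992 CPM). Across the 7 libraries the log2 levels of both members were almost unrelated, with a Pearson r of -0.012 and a Spearman rho of 0.21 (a description over 7 libraries that share their scaling, without a test).

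**Figure D1:**
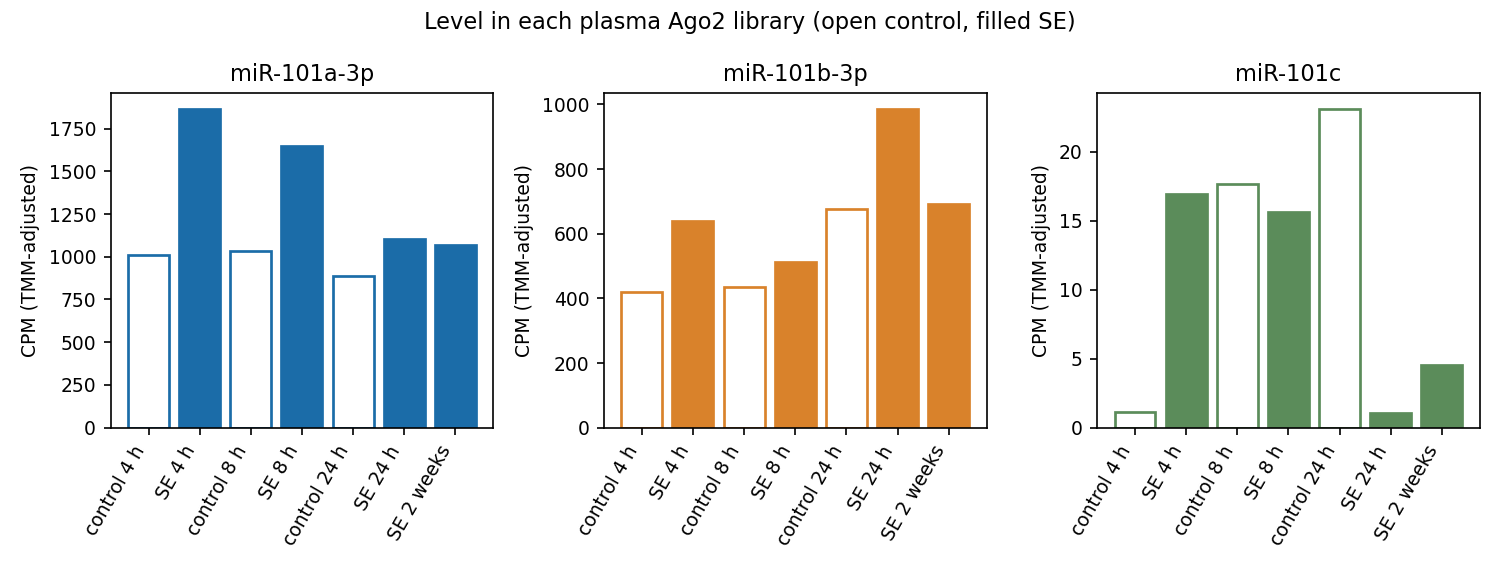
Level of miR-101a-3p, miR-101b-3p and miR-101c in each library, in CPM on TMM-adjusted totals, with open bars for control and filled bars for SE (1 library per bar, axes from 0 and different for each member). miR-101a-3p was between 1071 and 1862 CPM in SE and between 885 and 1031 CPM in control, whereas miR-101c stayed under 50 CPM throughout.

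To ask which members differed at each time-point, SE and control libraries were set against each other in pairs. The exact test of edgeR was used, with a biological coefficient of variation (BCV) of 0.1 given in advance, a setting that follows the methods of the study. A call, higher or lower, required a change of at least 1.5-fold and an unadjusted p under 0.05. Such a test speaks of the reads of 2 libraries and not of the conditions, and its p-values are not printed.

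At 4 h, both tested members were called higher in SE. This pair set the library with the lowest total (control 4 h, 2043220 counts) against that with the highest (SE 4 h, 5405357 counts). In control 4 h 232 miRNAs had a count and in SE 4 h 399, and the part of this in the calls was not tested. miR-101a-3p rose from 1765 counts (1013 CPM) to 7928 counts (1862 CPM), a fold change of 1.84 (95% counting interval 1.75 to 1.94) and a log2 fold change of 0.88. miR-101b-3p rose from 729 counts (418 CPM) to 2719 counts (639 CPM), a fold change of 1.53 (1.41 to 1.66) and a log2 fold change of 0.61, just past the threshold of 1.5. Of the 189 miRNAs tested at 4 h, 61 (32.3%) were called higher and 66 lower, and the median log2 fold change was -0.06. miR-101a-3p ranked 47 and miR-101b-3p 59 from the highest fold change. The call of miR-101a-3p was also made with 3 other scalings of the libraries, with log2 fold changes of 0.72 to 0.76. miR-101b-3p was not called with any of these, with log2 fold changes of 0.45 to 0.50. At a BCV of 0.2 only miR-101a-3p was called, and at a BCV of 0.4 neither.

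At 8 h, miR-101a-3p was called higher and miR-101b-3p was not. miR-101a-3p went from 4445 counts (1031 CPM) to 5992 counts (1645 CPM), a fold change of 1.60 (counting interval 1.54 to 1.66) and a log2 fold change of 0.67. miR-101b-3p had 1872 counts (434 CPM) in control and 1869 counts (513 CPM) in SE, a fold change of 1.18 (1.11 to 1.26) and a log2 fold change of 0.24. That value was close to the median of the 154 miRNAs tested, 0.23, and so gave miR-101b-3p no distance from the bulk of the library. The call of miR-101a-3p was lost at a BCV of 0.2 or 0.4. Of those 154 miRNAs, 54 (35.1%) were called higher and 23 lower.

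At 24 h, neither member was called. miR-101a-3p had 3493 counts (885 CPM) in control and 3099 counts (1105 CPM) in SE, a log2 fold change of 0.32. miR-101b-3p had 2673 counts (677 CPM) in control and 2761 counts (985 CPM) in SE, a log2 fold change of 0.54 and a fold change of 1.45 (counting interval 1.38 to 1.53). Of 141 miRNAs tested, 35 (24.8%) were called higher and 28 lower. Here the direction itself rested on the scaling. With library size only, the log2 fold changes were -0.30 for miR-101a-3p and -0.077 for miR-101b-3p, while the median of all miRNAs tested moved from 0.04 to -0.64. Relative to that median, miR-101a-3p was 0.28 higher with TMM and 0.34 higher with library size only, and miR-101b-3p was 0.50 and 0.56 higher.

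At 2 weeks, set against control 24 h, neither member was called and both were close to the bulk of miRNAs. miR-101a-3p was at 1071 CPM against 885 CPM, a log2 fold change of 0.27. miR-101b-3p was at 692 CPM against 677 CPM, a log2 fold change of 0.03 with a counting interval of the fold change from 0.964 to 1.08. Of 145 miRNAs tested, 27 (18.6%) were called higher and 19 lower. The choice of control mattered for miR-101b-3p. Its log2 fold change at 2 weeks was 0.73 against control 4 h and 0.67 against control 8 h, and it was called higher with both, whereas miR-101a-3p had 0.08 and 0.05 and was called with neither. Calls over all miRNAs, in either direction, also rose, to 121 with control 4 h and 62 with control 8 h, from 46 with control 24 h.

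The 3 control libraries were compared with each other in the same way, to give the size of differences between libraries without SE. From control 4 h to control 8 h, log2 fold changes were 0.03 for miR-101a-3p and 0.05 for miR-101b-3p, and neither was called, although 105 of 177 miRNAs (59.3%) were called in either direction. From control 4 h to control 24 h, miR-101a-3p had a log2 fold change of -0.19, which was 0.24 with library size only, and miR-101b-3p was called higher at 0.70. Here 126 of 181 miRNAs (69.6%) were called. From control 8 h to control 24 h, miR-101a-3p had a log2 fold change of -0.22, and miR-101b-3p was called higher at 0.64, a call that was lost with each of the 3 other scalings. Here 64 of 141 miRNAs (45.4%) were called. For miR-101a-3p, the log2 fold changes of SE (0.27 to 0.88) were all larger in size than those between controls (up to 0.22) with TMM over all 7 libraries, and with none of the 3 other scalings. With library size only, control 8 h exceeded control 4 h by 0.54. From control 8 h to control 24 h the value was -0.42 with DESeq2's size factors and -0.37 with TMM over the 2 libraries. For miR-101b-3p the largest difference between controls (0.70) was above the largest of SE (0.61).

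**Figure D2:**
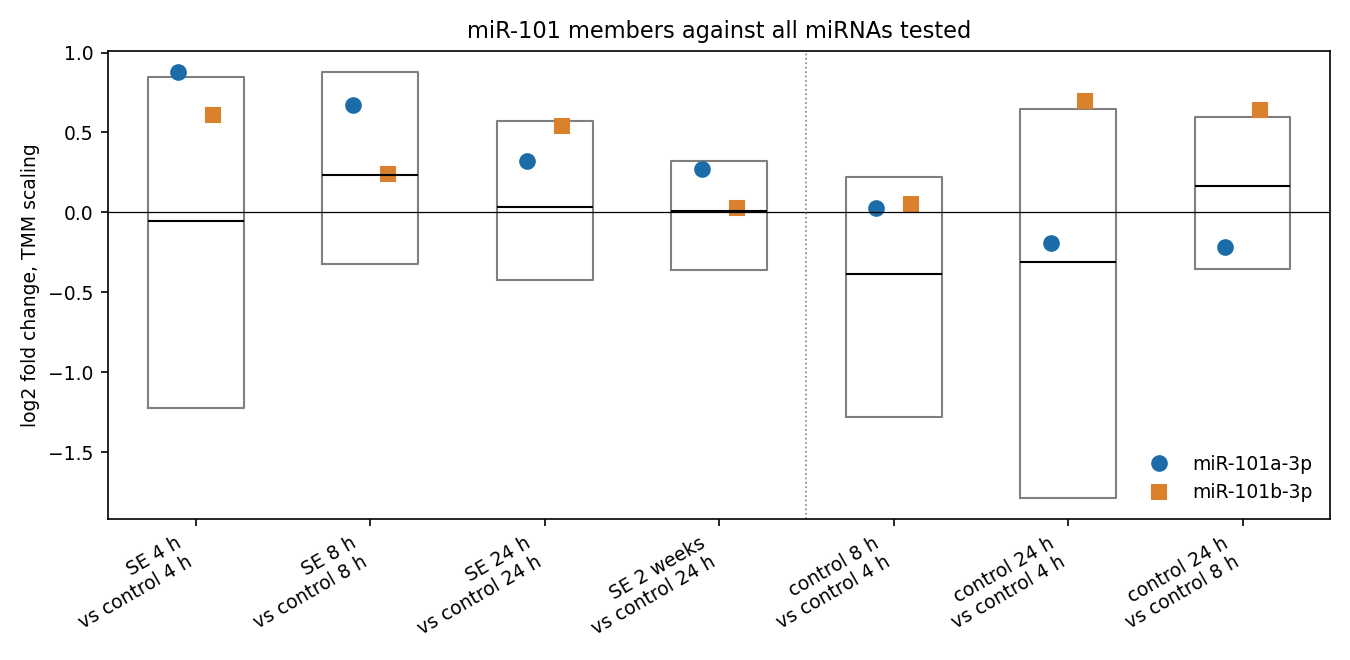
Log2 fold change (TMM scaling) of miR-101a-3p (circles) and miR-101b-3p (squares) in 4 comparisons of SE with control and, right of the dotted line, 3 comparisons between controls, over boxes that give the median and interquartile range of all miRNAs tested. In SE miR-101a-3p ran from 0.27 to 0.88 and between controls from -0.22 to 0.03.

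The summed family, which does not depend on how reads were divided among members, was at 1432, 1483 and 1586 CPM in the 3 controls, from 4 h to 24 h. In SE it was at 2517, 2174, 2091 and 1775 CPM from the earliest to the latest time-point. With TMM the control sums were within 1.11-fold of each other and all 4 SE sums were above them, and the SE sum was lower at each later time-point. Tested as 1 row, the family was called higher at 4 h (log2 fold change 0.81) and not at 8 h (0.55), 24 h (0.40) or 2 weeks (0.16). Between controls its log2 fold changes were 0.05 to 0.15. With DESeq2's size factors the SE sums (1746 to 2285 CPM) were again all above the control sums (1413 to 1656 CPM). With library size only, they overlapped, at 1577 to 2500 CPM in SE and 1222 to 1833 CPM in control. The fall of the SE sum at each later time-point held with neither. With DESeq2's size factors SE 8 h (2285 CPM) was just above SE 4 h (2264 CPM). With library size only, SE 8 h (2500 CPM) was above SE 4 h (1983 CPM), and SE 2 weeks (2157 CPM) above SE 24 h (1577 CPM).

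The 3 SE and 3 control libraries of 4 h, 8 h and 24 h were also compared as groups, which measures the spread from the libraries themselves. Within a side the libraries come from 3 time-points, so they do not replicate 1 condition. With edgeR's quasi-likelihood test, miR-101a-3p had a log2 fold change of 0.66 (adjusted p = 0.380) and miR-101b-3p one of 0.48 (adjusted p = 0.728). With time-point as a block the log2 fold changes were 0.62 (adjusted p = 0.242 by the same test) and 0.46 (adjusted p = 0.442). Over 11 alternative settings, the block included, the adjusted p was between 0.210 and 0.899 for miR-101a-3p and between 0.442 and 0.978 for miR-101b-3p. No miRNA of the 137 tested passed an adjusted p of 0.05 (0%), while 17 had an unadjusted p under 0.05, miR-101a-3p among them, and DESeq2 called 4, none of them a member. The estimated BCV was 0.587, against the 0.1 assumed for the pairs of libraries.

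For single values, the exact permutation test over libraries (two-sided) gave p = 0.10 for the mean log2 level of miR-101a-3p in 3 SE against 3 control libraries, a difference of 0.62, and 0.10 is the smallest p that 3 against 3 can give. With SE 2 weeks included the difference was 0.50 and the exact p was 0.057, the smallest that 4 against 3 can give. For miR-101b-3p the differences were 0.46 (exact p = 0.30) and 0.47 (exact p = 0.17). For the summed family they were 0.59 (exact p = 0.10) and 0.50 (exact p = 0.057). A total of 15 such tests were made on members and shares, those of a contrast of time-points chosen after the values were seen included. After Benjamini-Hochberg adjustment the smallest exact permutation p was 0.21.

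The split of the family between miR-101a-3p and miR-101b-3p is a ratio within a library, so no scaling enters it. At 4 h, miR-101b-3p took 29.2% of the family in control and 25.4% in SE, and at 8 h it took 29.3% in control and 23.6% in SE. At 24 h it took 42.7% in control and 47.1% in SE, and at 2 weeks 39.0% in SE. The libraries thus separated by time-point and not by treatment, with 23.6% to 29.3% in the 4 libraries of 4 h and 8 h and 39.0% to 47.1% in the 3 libraries of 24 h and 2 weeks. The widest counting interval was that of control 4 h, 27.5% to 31.0%. For each read of miR-101b-3p there were 2.37 to 3.21 reads of miR-101a-3p at 4 h and 8 h, and 1.12 to 1.55 at 24 h and 2 weeks.

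This contrast of time-points was chosen after the values were seen. The mean share of miR-101b-3p was 42.9% ± 4.07 (SD, n = 3) in the later libraries and 26.9% ± 2.84 (SD, n = 4) in the earlier ones. The exact permutation p was 0.057, the smallest possible. That p follows from choosing groups seen not to overlap, so no conclusion is drawn from it. In level, miR-101b-3p was at 677 to 985 CPM in the later libraries and at 418 to 639 CPM in the earlier ones. These ranges did not overlap with library size only (743 to 840 CPM against 357 to 590 CPM) or with DESeq2's size factors (656 to 992 CPM against 413 to 574 CPM). The same held for 21 of 102 miRNAs (20.6%) with TMM, so a higher level at the later time-points was common in these libraries. miR-101a-3p overlapped, at 885 to 1105 CPM later and 1013 to 1862 CPM earlier.

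Markers of several sources, though not of all, moved with the same time-points. The muscle miRNA miR-133a-3p, the 1 marker counted of the 3 listed, was at 793 to 1439 CPM in the 4 libraries of 4 h and 8 h and at 75.5 to 180 CPM in the 3 later ones. The sum of 2 of 2 platelet and endothelial miRNAs, miR-126a-3p and miR-223-3p, was at 281 to 514 CPM in the earlier and at 655 to 700 CPM in the later libraries. For the sum of 4 of 4 neuronal miRNAs the levels were 1142 to 1475 CPM earlier and 1859 to 2286 CPM later. Nearly all of that sum was miR-128-3p. The part of these sources in the split of the family was not tested. Time-point of collection and any difference in handling between collections cannot be told apart.

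Between SE and control the split had no settled direction. The mean share of miR-101b-3p was 32.0% in SE and 33.7% in control over 3 libraries a side (exact permutation p = 0.80), and the sign of the difference turned when SE 4 h, SE 8 h or control 24 h was left out (1.61, 2.49 and 2.78 percentage points). Within time-points the share of miR-101a-3p was 3.25 percentage points higher in SE at 4 h and 6.15 points higher at 8 h, and the difference at 24 h was -2.97 points. The counting intervals of the shares compared did not overlap at any of these time-points, and none of the differences has a replicate check.

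**Figure D3:**
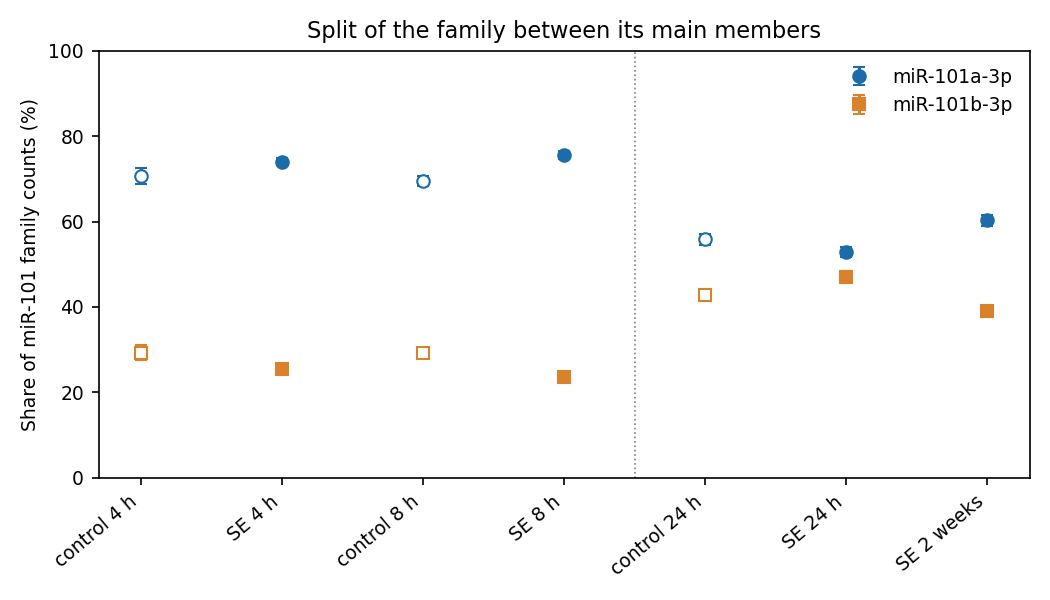
Share of the miR-101 family's counts taken by miR-101a-3p (circles) and miR-101b-3p (squares) in each library, in percent with 95% Wilson intervals, open for control and filled for SE. Left of the dotted line, at 4 h and 8 h, miR-101b-3p took 23.6% to 29.3%, and right of it, at 24 h and 2 weeks, 39.0% to 47.1%.

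miR-101c was counted at a far lower level, and unevenly. In control it had 2 counts at 4 h, 76 at 8 h and 91 at 24 h, and in SE it had 72 counts at 4 h, 57 counts at 8 h, 3 counts at 24 h and 14 counts at 2 weeks. Control 4 h and SE 24 h, at or under the floor of 3 counts, were thus a control and an SE library. They were also the libraries with the largest share of miR-486b-5p (76.1% in both), and the part of that in these counts was not tested. In SE 4 h, SE 8 h, control 8 h and control 24 h its counts (57 to 91) were not far above the values around which low counts clustered in those libraries (37.6 to 60.2). In ratio to control, miR-101c was 14.7-fold (counting interval 3.93 to 124) at 4 h, 0.888-fold (0.619 to 1.27) at 8 h, 0.0464-fold (0.00939 to 0.140) at 24 h and 0.197-fold (0.103 to 0.347) at 2 weeks. The ratio of control 8 h to control 4 h, 15.4-fold (4.11 to 129), was as large as that of SE at 4 h. Its share of the family ran from 0.0512% (SE 24 h) to 1.45% (control 24 h).

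miR-101a-5p, the other strand of the Mir101a hairpin, had 26 counts in SE 2 weeks and 0 in the 6 other libraries, where 0 counts allow up to 0.555 to 1.47 CPM on plain library totals. Its 26 counts are fewer than the 33.1 around which low counts clustered in SE 2 weeks. Against the floor of 3 counts in control 24 h it was at least 11.1-fold higher.

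The 5 miRNAs whose log2 levels over the 7 libraries were most like the summed family, of 102 compared and leaving out the members, were miR-192-5p (Pearson r 0.94, Spearman rho 0.96), miR-10a-5p (0.93, 0.93), miR-182-5p (0.89, 0.71), miR-532-5p (0.86, 0.86) and miR-30a-3p (0.84, 0.75). These are descriptions over 7 libraries that share their scaling, without a test. miR-192-5p, known for its abundance in liver, kidney and gut, was at 12050 to 14443 CPM in control and 15230 to 22428 CPM in SE. miR-10a-5p, encoded within a Hox cluster, was at 7976 to 8804 CPM in control and 10413 to 20603 CPM in SE. Both lay above all controls in all 4 SE libraries, as did miR-532-5p. miR-30a-3p is, like the members, in the study's list of brain-enriched miRNAs without a cell type. For miR-101a-3p alone the Pearson r with the summed family was 0.86, and for miR-101b-3p it was 0.50.

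That list held 18 miRNAs counted here, the 3 members of the 3′ arm included. At 4 h, 14 were tested, of which 7 were called higher and 3 lower. Of all 189 miRNAs tested at 4 h, 61 (32.3%) were called higher and 66 lower. The median log2 fold change of the list was 0.59 against -0.06 for all miRNAs tested. Without the members, 5 were called higher and 3 lower of 12, with a median of 0.39. At 8 h, 13 were tested, with 7 higher and 2 lower, against 54 (35.1%) higher and 23 lower of all 154. The median was 0.63 against 0.23, and without the members it was again 0.63. At 24 h, 12 were tested, with 2 higher and 2 lower, against 35 (24.8%) higher and 28 lower of all 141. The median was 0.03 against 0.04. Without the members the median at 24 h was -0.17 over 10 miRNAs, so its sign rested on them. At 2 weeks, 13 were tested, with 1 higher and 3 lower, against 27 (18.6%) higher and 19 lower of all 145. The median was -0.19 against 0.01, and without the members it was -0.20.

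Among the miRNAs of the list that were tested, miR-101a-3p and miR-101b-3p were never at an end of the range. miR-101c, which was under the filter, has no place in it. At 4 h the highest fold change was that of miR-186-5p (163 CPM in control, 703 CPM in SE, log2 fold change 2.11), and the lowest was that of miR-27b-5p, with 111 counts in control and 0 in SE, at least 90.4-fold lower. At 8 h the range ran from miR-199a-5p, with 1 count in control and 213 in SE, to miR-181c-3p (log2 fold change -1.24). At 24 h it ran from miR-30a-3p (83.1 CPM in control, 224 CPM in SE, log2 fold change 1.43) to miR-330-5p, with 217 counts in control and 0 in SE, at least 51.4-fold lower. At 2 weeks it ran from miR-125b-5p (0.59) to miR-330-5p (-2.36). Apart from miR-186-5p and miR-30a-3p, each of these miRNAs reached the filter of 50 CPM only in the library where it was higher. Such ends of the range therefore rest partly on the filter. The 111 counts of miR-27b-5p also lay near the 102 around which low counts clustered in control 4 h. In log2 fold change miR-101a-3p ranked 5, 6, 5 and 2 from the top of the list in the comparisons from the earliest to the latest, and miR-101b-3p 6, 9, 4 and 4.

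Markers of the sources that plasma can hold were set beside the members. The sum of 4 of 4 neuronal miRNAs was at 1142 to 2286 CPM in control and at 1349 to 1969 CPM in SE, with overlap, and nearly all of it was miR-128-3p. miR-124-3p, a defining miRNA of neurons, was at 0 in all libraries except SE 24 h, where it was at 17.5 CPM. The liver miRNA miR-122-5p was at 0 in the 3 controls and at 0 to 17.8 CPM in SE. The platelet and endothelial sum was at 281 to 655 CPM in control and 464 to 700 CPM in SE. The erythroid miR-144-3p, which shares the first 6 seed bases with miR-101a-3p, had 0 counts in control 4 h and 599 to 1634 in the other libraries. Its fellow erythroid marker miR-451a was at 1.72 CPM in control 4 h and at 9.04 to 20.5 CPM in the others. The muscle miRNA miR-133a-3p moved in the same direction as miR-101a-3p in every comparison of SE with control with TMM, but not from control 4 h to control 8 h. It was at 888 CPM in control and 1104 CPM in SE at 4 h, at 793 and 1439 CPM at 8 h, at 75.5 and 180 CPM at 24 h, and at 116 CPM in SE 2 weeks. Over all time-points each of these markers overlapped between SE and control, and their part in the levels of the members was not tested.

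**Figure D4:**
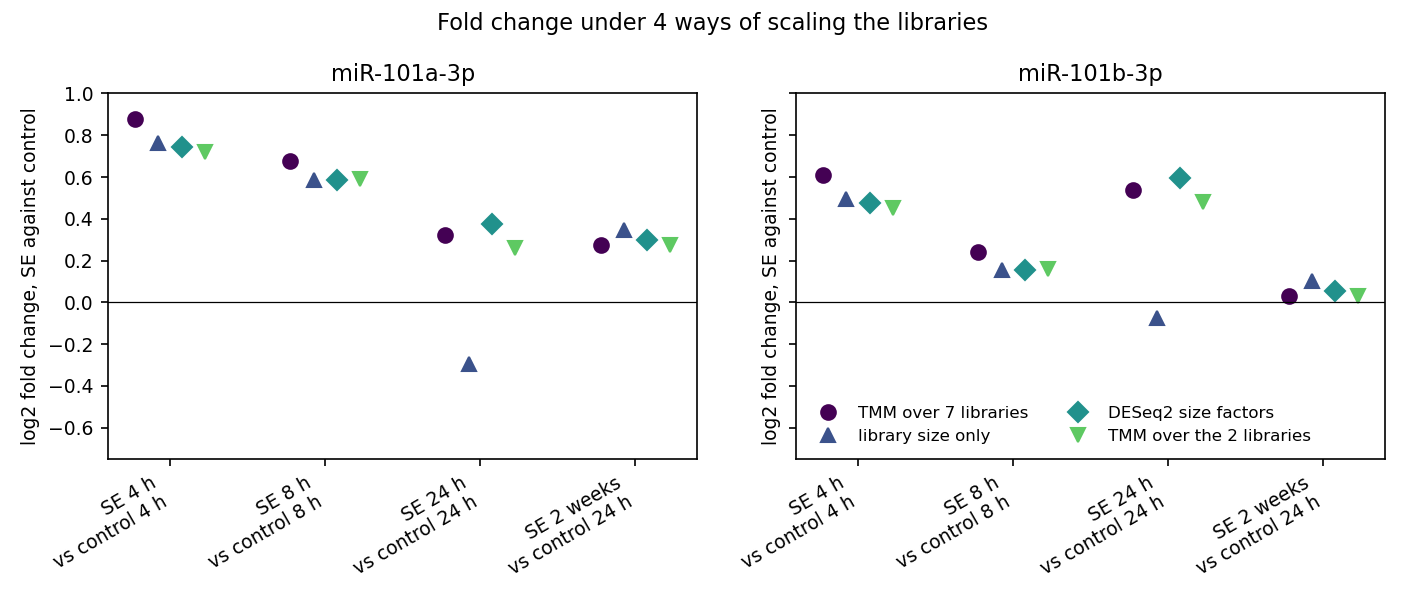
Log2 fold change of miR-101a-3p and miR-101b-3p in SE against control under 4 ways of scaling the libraries (TMM over 7 libraries, TMM over the 2 libraries compared, library size only, or size factors of DESeq2). All values were above 0 except those at 24 h with library size only, -0.30 for miR-101a-3p and -0.077 for miR-101b-3p.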

How the data were processed

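The authors processed reads in the Chimera software, which removed adapters, filtered by read size and matched reads against mouse miRBase by BLASTn, allowing up to 2 mismatches. They deposited raw counts, with no normalisation, for every mature miRNA. Chimera's version is not given in the sources used here. The submitters' processing notes also name edgeR and limma. All 7 columns were used, grouped by the treatment and time-point in the labels.

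From these counts, CPM, shares with 95% Wilson intervals and exact counting intervals of ratios were computed in Python 3.11.15 (numpy 2.4.6, pandas 2.3.3, scipy 1.17.1), and figures were drawn in matplotlib 3.10.9. TMM factors were computed over all 7 libraries in edgeR 4.0.16 (R 4.3.3, limma 3.58.1). Pairs of libraries were compared with the exact test at a BCV of 0.1 and a prior count of 0.125, over miRNAs that reached 50 CPM in either library. The quasi-likelihood test used miRNAs that reached 50 CPM in 3 or more of the 6 libraries, with Benjamini-Hochberg adjustment. Scripts were tested on simulated counts. Precision follows from total counts of 2043220 to 5405357 per library.

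Members, lists and tests were chosen with earlier results of these data known. Named miRNAs are all members, the 5 miRNAs most like the summed family, the ends of the brain-enriched list in each comparison, and marker miRNAs beside a member. Alternatives were BCV 0.2 and 0.4, other scalings (DESeq2 1.42.0 among them), other filters, a prior count of 2, other controls for SE 2 weeks, and leaving out each library. Sequences are from RefSeq and annotation from GENCODE, both on GRCm38.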

Additional observations from a re-analysis of the deposited data

Results flagged for a closer look

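The share of miR-101a-3p in the family moved in opposite directions between time-points, 3.25 percentage points higher in SE at 4 h and 6.15 points higher at 8 h but with a difference of -2.97 points at 24 h. The share of miR-101c was 0.592 points higher in SE at 4 h, and differed by -0.469 points at 8 h and by -1.40 points at 24 h. With 1 library per condition the difference between time-points was not tested for either member.

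miR-101a-5p, which was under the filter of 50 CPM and entered a comparison only where no filter was applied, had 26 counts in SE 2 weeks and 0 in each of the 3 control libraries.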

How the results depend on the processing

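Of the members called at 4 h (2), 1 was called with a BCV of 0.2, with size factors of DESeq2, with TMM over the 2 libraries and with library size only, in each case miR-101a-3p, and 0 with a BCV of 0.4. A filter at 10 CPM or no filter gave 3 at 4 h, with miR-101c (higher) added. At 8 h the 1 call was lost (0) with a BCV of 0.2 or 0.4. At 24 h, where 0 members were called, DESeq2's size factors gave 1 (miR-101b-3p, higher), and a filter at 10 CPM or no filter gave 1 (miR-101c, lower). At 2 weeks a filter at 10 CPM gave 1 (miR-101c), no filter gave 2 (miR-101c and miR-101a-5p), and control 4 h or control 8 h in place of control 24 h gave 1 (miR-101b-3p). The alternatives of the control pairs were added after seeing the data. From control 4 h to 8 h, 1 member (miR-101c) was called at 10 CPM or without a filter. From control 4 h to 24 h, 0 were called at a BCV of 0.2 or 0.4 and 2 at 10 CPM or without a filter. From control 8 h to 24 h, 0 were called at a BCV of 0.2 or 0.4 or with any other scaling. With library size only, log2 fold changes turned to -0.30 (miR-101a-3p) and -0.077 (miR-101b-3p) at 24 h, and to 0.24 for miR-101a-3p from control 4 h to 24 h. At a BCV of 0.4 the calls over all miRNAs fell from 127 to 58 at 4 h, from 77 to 23 at 8 h, from 63 to 19 at 24 h and from 46 to 8 at 2 weeks. Without a filter they were 310, 257, 261 and 238.

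Leaving out 1 library at a time, the log2 difference of miR-101a-3p over 3 SE and 3 control libraries was 0.47 to 0.85, that of miR-101b-3p 0.20 to 0.69 and that of the summed family 0.51 to 0.64, none reversed. The SE minus control share of miR-101a-3p ran from -2.62 to 9.46 percentage points over 3 against 3 and from -4.42 to 4.63 over 4 against 3. The share of miR-101b-3p ran from -9.25 to 2.78 and from -4.43 to 4.51, so neither has a settled direction. The later minus earlier share of miR-101b-3p ran from 14.0 to 18.0 points. The cause of these changes was not tested. Replicate numbers pair no libraries, since each condition has 1. SE and control at 4 h, 8 h and 24 h share a time-point, and with time-point as a block edgeR's quasi-likelihood test gave log2 fold changes of 0.62 for miR-101a-3p (adjusted p = 0.242) and 0.46 for miR-101b-3p (adjusted p = 0.442), with 0 miRNAs past an adjusted p of 0.05 and 20 at an unadjusted p under 0.05, against 0 and 17 without the block, and DESeq2 without the block called 4.

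With 1 library a condition, fold changes have no replicate error. The calls at a BCV of 0.1 assume a spread well under the 0.587 estimated over 3 libraries a side, and between controls 45.4% to 69.6% of miRNAs were called. Reads of the 3 near-identical members may be credited to one another.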
